A study of Mus musculus with 18 samples.

Results

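The GABA-A receptor subunit genes Gabra2, Gabra4, Gabrb1, Gabra5, Gabrg3, Gabra6 and Gabrb2 were examined in a consensus list of accessible chromatin from mouse cortical neurons. The intervals described are those that touch any of the 7 genes or the 50 kb on either side of each, with gene ends taken from RefSeq on GRCm38 and each interval counted once. There were 183 of 211682 intervals (0.0865%). The assay was ATAC-seq, where Tn5 transposase inserts sequencing adapters into open chromatin, on primary neurons from E14.5-15 cortices of CD1 mice. All cultures received cytosine arabinoside at 2 µM against dividing cells. Viruses carrying short hairpin RNAs (shRNAs) were applied on day 6 in culture and cells were harvested on day 11. The 4 groups are shControl with shScrambled (5 samples), shControl with shAtf4 (3 samples), shOpa1 with shScrambled (5 samples) and shOpa1 with shAtf4 (5 samples). Every group thus carries a pair of shRNAs, and none is uninfected. Opa1 is the inner-membrane GTPase of mitochondrial fusion, and Atf4 drives transcription in the integrated stress response.

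The list has no column for a sample or group, so no knockdown comparison, standard deviation or sequencing depth can be given, and no value below belongs to a knockdown. It describes which sites of these genes were in the consensus set. All 183 intervals have the authors' score at its ceiling of 1000, as do 98.5% of the whole list, so the score does not rank them. In bulk cultures, a site open in few cells and a site open weakly in many cannot be told apart. As a check of the tissue label, marker genes were read at their RefSeq starts, for the markers that have a start in the table used. An interval lay within 1000 bp of a start for 4 of 4 pan-neuronal, 5 of 5 inhibitory and 4 of 4 excitatory markers. The same held for 1 of 3 astrocyte markers, 0 of 1 oligodendrocyte marker and 0 of 3 microglia markers, against 68.0% of 17492 protein-coding genes. Intervals per 100 kb of gene and flanks did not separate the marker lists by cell type. Over all listed markers the medians were 14.97 (pan-neuronal), 19.35 (inhibitory) and 7.73 (excitatory). They were 12.4 (astrocyte), 16.67 (oligodendrocyte) and 16.98 (microglia) for the others.

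GABA-A receptors are chloride channels that open when they bind GABA, the main inhibitory transmitter of the brain. Each channel is a pentamer, most often of alpha, beta and gamma subunits, and GABA binds between alpha and beta subunits. The subunit genes lie in clusters that arose by duplication of an ancestral set, and the subunits change over development, so that some are most abundant in the embryonic forebrain and others after birth. Here Gabra2, Gabra5 and Gabrg3 were taken as embryonic-type and Gabra4, Gabra6 and Gabrb2 as adult-type, from general knowledge of rodent brain, and Gabrb1 was put in neither class.

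The sequences around 5 starts are given first, since CpG content went with the presence of an interval over the whole list. They are RefSeq sequences of GRCm38.p6, each with the 250 bases before the start and the 50 from it, 5′ to 3′ on the gene's own strand, with CpG dinucleotides in capitals. Gabra6, the gene with no interval near its start, has 2 CpG, and Gabra2 has 25. Gabra4 and Gabrb1 are shown because their starts lie in the same interval. The upstream Gabrb2 start is shown because its sequence alone among the 10 of the members holds TATAAA.
Gabra6, chr11:42321023-42321322, minus strand: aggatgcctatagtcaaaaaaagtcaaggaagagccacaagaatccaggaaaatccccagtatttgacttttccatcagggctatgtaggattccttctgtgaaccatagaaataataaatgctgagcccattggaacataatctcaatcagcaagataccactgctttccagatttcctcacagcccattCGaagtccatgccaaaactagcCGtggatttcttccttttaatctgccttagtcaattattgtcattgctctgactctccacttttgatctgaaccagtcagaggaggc
Gabra2, chr5:71095800-71096099, minus strand: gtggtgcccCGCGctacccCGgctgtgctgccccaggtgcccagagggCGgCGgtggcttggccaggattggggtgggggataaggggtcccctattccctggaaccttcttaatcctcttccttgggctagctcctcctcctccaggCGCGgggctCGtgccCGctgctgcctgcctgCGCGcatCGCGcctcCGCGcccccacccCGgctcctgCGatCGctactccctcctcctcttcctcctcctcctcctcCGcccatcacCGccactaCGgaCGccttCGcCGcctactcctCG
Gabra4, chr5:71658259-71658558, minus strand: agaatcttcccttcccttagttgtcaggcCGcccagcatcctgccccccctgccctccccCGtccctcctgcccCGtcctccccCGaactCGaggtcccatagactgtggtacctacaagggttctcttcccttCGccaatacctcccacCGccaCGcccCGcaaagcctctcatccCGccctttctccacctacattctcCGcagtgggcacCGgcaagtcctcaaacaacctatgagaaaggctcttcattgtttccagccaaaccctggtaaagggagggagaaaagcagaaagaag
Gabrb1, chr5:71657671-71657970, plus strand: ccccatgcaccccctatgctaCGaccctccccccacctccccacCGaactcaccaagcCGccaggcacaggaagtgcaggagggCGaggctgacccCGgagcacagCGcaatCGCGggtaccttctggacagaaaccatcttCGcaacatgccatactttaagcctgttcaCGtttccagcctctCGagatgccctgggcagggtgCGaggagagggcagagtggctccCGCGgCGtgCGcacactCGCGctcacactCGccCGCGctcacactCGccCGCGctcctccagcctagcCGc
Gabrb2, chr11:42420190-42420489, plus strand: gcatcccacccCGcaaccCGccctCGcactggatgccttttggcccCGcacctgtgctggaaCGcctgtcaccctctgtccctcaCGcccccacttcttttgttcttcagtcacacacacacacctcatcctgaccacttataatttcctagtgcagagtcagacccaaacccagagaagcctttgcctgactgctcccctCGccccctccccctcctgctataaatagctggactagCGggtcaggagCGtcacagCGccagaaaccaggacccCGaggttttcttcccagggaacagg

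Of the 7 subunit genes, 6 had an interval within 1000 bp of a start, where 68.0% of 17492 protein-coding genes with a start in the table did. With 7 genes this count is a description, and nothing particular to the family is read from it. The count was again 6 within 500 bp (65.8% of all genes), within 2500 bp (72.4%) and with intervals of at least 500 bp alone (62.5%). In each of the 6, an interval lay over a start base itself, as in 62.5% of all genes. The exception was Gabra6, whose subunit alpha6 is known from cerebellar granule cells and is not a typical cortical subunit. Its nearest interval was 374 bp wide, inside the gene and 9.81 kb downstream of the start (chromosome 11, 42310884 to 42311257). The plot of intervals around each start shows this empty row against the other 9 starts.

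**Figure D1:**
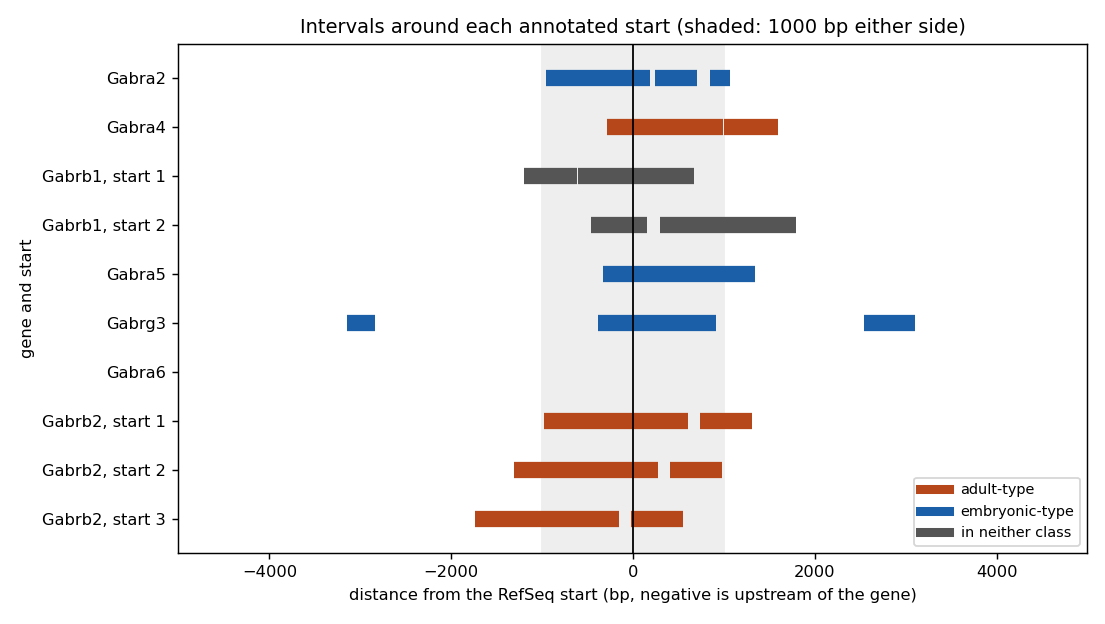
Intervals within 5000 bp of each annotated start of the 7 subunit genes, with distance in bp on the horizontal axis (negative is upstream) and a row for each gene and start; bars are intervals, coloured by subunit class, and the shaded band is 1000 bp on either side. An interval lies over the start in 9 of the 10 rows, and the Gabra6 row is empty.

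Gabra4 and Gabrb1, an alpha and a beta subunit gene, lie head to head on chromosome 5. Their starts are 387 bp apart, at 71658308 on the minus strand and 71657921 on the plus strand, and the annotated genes overlap by 388 bp. An interval of 1287 bp (71657312 to 71658598) covered both starts and the whole of both sequences printed above. It reached 290 bp upstream of the Gabra4 start and 609 bp upstream of the Gabrb1 start. The next interval, of 589 bp (71656717 to 71657305), began 6 bp away and lay inside Gabra4. A second RefSeq start of Gabrb1, at 71699932, also had an interval over it, of 620 bp (71699470 to 71700089). Beside that lay an interval of 1495 bp (71700235 to 71701729), the widest in the windows of both genes.

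The other alpha and gamma starts on chromosomes 5 and 7 each had an interval over them. Gabra2, which encodes a subunit abundant in the embryonic and adult forebrain, had 1144 bp over its start (chromosome 5, 71095659 to 71096802), with intervals of 464 and 227 bp just downstream. Gabra5, which encodes a largely extrasynaptic alpha subunit best known from the hippocampus, had 1676 bp over its start (chromosome 7, 57508711 to 57510386). Most of that interval was downstream, with 1348 bp inside the gene and 327 bp before it. Gabrg3, a gamma subunit gene, had 1303 bp (chromosome 7, 57386299 to 57387601). The non-coding gene Gm9962 starts on the opposite strand 57 bp from the Gabrg3 start, so the same interval covered the start of both. The interval over the start thus lay mostly upstream in Gabra2 and mostly downstream in Gabra5 and Gabrg3. With the narrower intervals beside it, the accessible stretch at Gabra2 reached from 953 bp upstream to 1072 bp downstream. The placement in Gabra2 therefore depends on where that stretch was split.

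Gabrb2, which encodes the beta subunit of the commonest adult receptors, has 3 RefSeq starts within 1 kb, at 42420440, 42420774 and 42421201 of chromosome 11. An interval of 1583 bp (42419466 to 42421048) covered the lower 2 of these, and one of 576 bp (42421180 to 42421755) covered the highest. The non-coding gene Gm34591 starts on the minus strand 14 bp from that highest start. Across the genes with an interval at a start, the widest such interval had a median of 1150 bp, with quartiles of 895 and 1400 bp. Against these, Gabra2 stood at the 49.2 percentile, Gabra4 at 64.8, Gabrg3 at 66.3, Gabrb1 at 81.3, Gabrb2 at 86.0 and Gabra5 at 89.7. The start intervals were therefore of usual to wide size, and no class was apart in width.

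The count of CpG dinucleotides in the 300 bases around a start goes with accessibility in the whole list. Among 21263 starts of protein-coding genes, 8.03% of those with no CpG had an interval within 1000 bp. The share was 15.6% with 1 to 2 CpG, 34.5% with 3 to 5, 61.5% with 6 to 10, 89.5% with 11 to 15 and 98.0% with 21 to 30. Gabra6, with 2 CpG and 42.0% G and C, fell in the bin with 15.6%. Gabra2 and the upstream Gabrb1 start, with 25 CpG each, fell in the bin with 98.0%. Gabrb2 (11), Gabra4 (12), Gabra5 (13) and Gabrg3 (13) fell in the bin with 89.5%, near the median of 13 over all starts. The downstream Gabrb1 start and the later Gabrb2 starts had 9 CpG each, in the bin with 61.5%, and also had intervals. Which part the sequence has in the state of any of these starts was not tested.

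**Figure D2:**
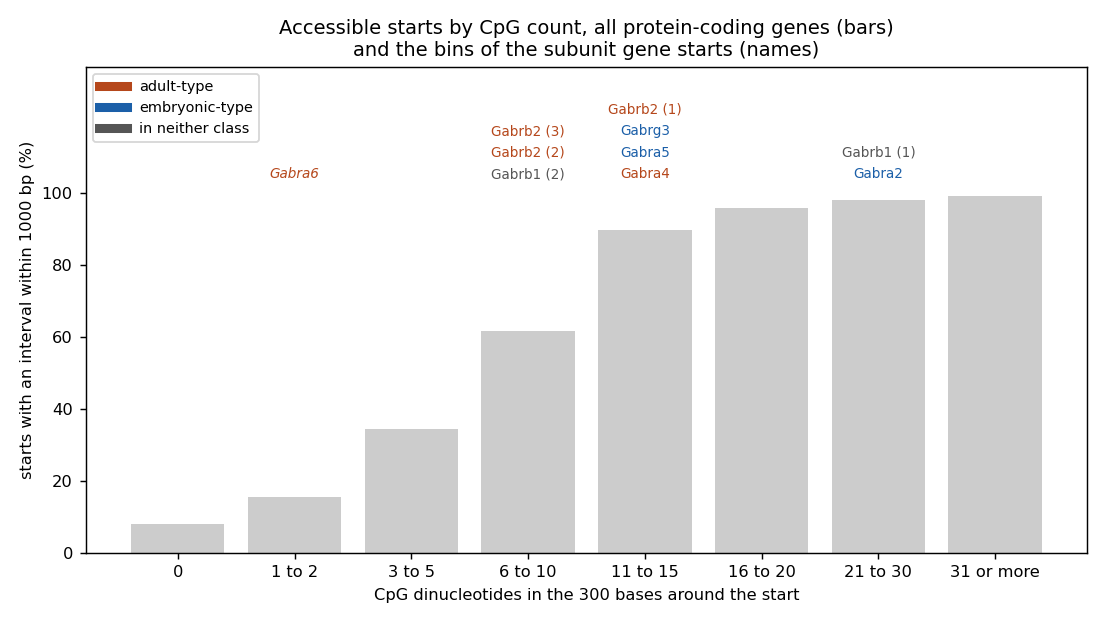
Share of protein-coding gene starts with an interval within 1000 bp (vertical axis, percent) by the number of CpG dinucleotides in the 300 bases around the start (horizontal axis); names mark the bin of each subunit gene start, with the start's number where a gene has several and italics where it had no interval. Gabra6 stands in the bin of 1 to 2 CpG, at 15.6%, and the other 9 starts stand in bins from 61.5% to 98.0%.

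Short motifs were then searched in these sequences on both strands, as plain letter matches. TATAAA, the core of a TATA box, occurred in 1 of the 10 member sequences and in 12.6% of all 21263. That match began 30 bases before the upstream Gabrb2 start. The same sequence held TGACG, the half-site of the cyclic AMP response element, which occurred in 23.6% of all sequences. TGATGNAA, the core of the element that Atf4 binds with C/EBP partners, occurred in 3.6% of all sequences and in 1 member sequence, that of Gabra6. GGGCGG, a GC box, was in 4 of the 10 (46.2% of all), at Gabra2, Gabra4, Gabrg3 and Gabrb2, and CCAAT was in 5 of the 10 (38.2% of all). A match of letters is no evidence that a factor binds there.

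The windows were then compared by interval density, the number of intervals per 100 kb of gene and flanks. Gabra6 had 5 intervals in 114.6 kb (4.36 per 100 kb). Gabrb2 had 21 in 313.1 kb (6.71) and Gabra2 16 in 237.5 kb (6.74). Gabrb1 had 45 in 591.7 kb (7.61) and Gabra4 15 in 188.6 kb (7.95). Gabrg3 had 69 in 770.8 kb (8.95) and Gabra5 29 in 283.3 kb (10.23). Of these 29, the 8 in the upstream flank lay in another protein-coding gene. All 7 were below the median of 10.26 over 21774 protein-coding genes (quartiles 5.35 and 15.45), Gabra5 by very little. Their percentiles ran from 21.2 (Gabra6) to 49.9 (Gabra5). The place of Gabra6 as the lowest depends on the flank. With 100 kb on either side it had 15 intervals (6.99 per 100 kb), above Gabra2 (5.63) and Gabrb2 (6.05), and with 10 kb it had 1 (2.89). Protein-coding genes of at least 100 kb, the size class of 5 of the 7, had a median of 10.43. These densities have no replicate error, so the order of close neighbours, such as Gabrb2 and Gabra2, is not a difference.

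**Figure D3:**
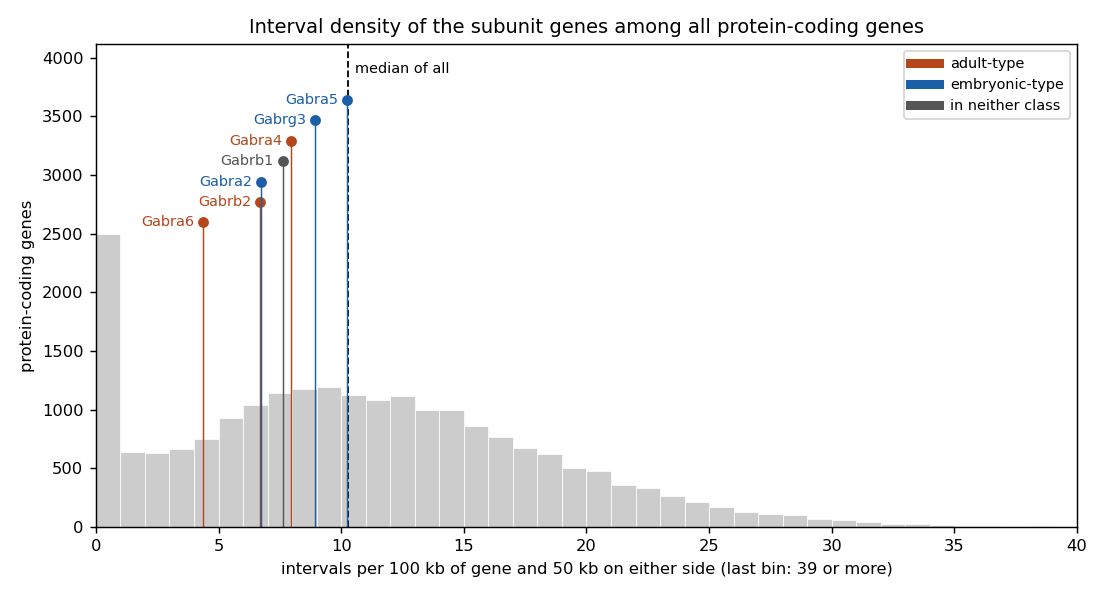
Number of protein-coding genes (vertical axis) by intervals per 100 kb of the gene and 50 kb on either side (horizontal axis, bins of 1); stems mark the 7 subunit genes, coloured by class, their heights only separate the names, and the dashed line is the median of all genes. The subunit genes stand between 4.36 and 10.23, at or left of the median of 10.26.

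The share of sequence inside intervals followed a similar order, from 1.66% of the Gabra6 window to 5.84% of the Gabra5 window. The Gabra5 share takes in an interval of 2344 bp that cannot be assigned to that gene, described below. Between the 2 extremes were Gabrb2 (3.28%), Gabra2 (3.62%), Gabrg3 (4.12%), Gabra4 (4.15%) and Gabrb1 (4.17%). Inside the genes alone, Gabra4 had the highest density, with 12 intervals in 88.6 kb (13.55 per 100 kb), and was the only member above the median of 10.71 for gene bodies. Gabra5 (9.27), Gabrg3 (9.09), Gabra2 (7.27), Gabra6 (6.83), Gabrb1 (6.71) and Gabrb2 (5.16) followed. The Gabra6 value rests on 1 interval. Adjacent windows share intervals, 11 between Gabra4 and Gabrb1 and 6 between Gabra5 and Gabrg3, so their values are not independent.

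Of the 183 intervals, 133 lay inside a member away from its starts and 11 within 1000 bp of a member start. Another 29 lay between genes, 9 in another protein-coding gene and 1 in a non-coding gene alone. The 11 start intervals had a median width of 1144 bp (227 to 1676), and the other 172 a median of 409.5 bp (132 to 2344). Over the whole list the median was 425 bp. Intervals at least 500 bp wide made up 32.8% of the 183 and 38.3% of the whole list. Within 10 kb of the member starts the density was 11.34 per 100 kb (16 intervals in 141.2 kb), and in the rest of the windows it was 7.67 (167 intervals in 2176.9 kb). At the 50 kb limit itself, the nearest interval left out was between 0.111 kb (Gabrb1) and 33.2 kb (Gabra2) outside the window. The nearest one wholly counted was between 0.877 kb (Gabrb1) and 84.4 kb (Gabra4) inside it, and 1 interval lay across the lower edge of the Gabrg3 window.

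The chromosome 5 cluster holds Gabra2, Gabra4 and Gabrb1 in the windows studied, in 917.3 kb and 65 intervals (7.09 per 100 kb). The chromosome as a whole had 9.34 per 100 kb. Gabra2 and Gabra4 are 474 kb apart, so their windows do not meet. Each gene was cut into 3 equal parts from its 5′ to its 3′ end, and an interval was placed by its midpoint. In Gabra2, intervals gathered toward the start, with 6 in the 5′ part, 1 in the middle and 2 in the 3′ part. The interval over the Gabra2 start is centred upstream of the gene and is in none of these parts. A stretch of 46.0 kb inside the gene (71011939 to 71057977) had no interval. It ended at the widest interval away from the start, of 960 bp (71010979 to 71011938). In Gabra4, 4 intervals lay in the 5′ part, 8 in the middle and 0 in the 3′ part. From an interval of 731 bp (71604132 to 71604862) to the lower edge of the window, 84.4 kb held no interval, the longest such stretch in the 7 windows. It takes in the end of Gabra4 and a part of Cox7b2, a gene related to a cytochrome c oxidase subunit, which had no interval at its own start.

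Gabrb1 runs over 492 kb and its intervals were spread evenly, with 10, 12 and 11 in the 5′, middle and 3′ parts. In consecutive steps of 100 kb from the upstream start it had 7, 5, 7, 8 and, in the shorter last step, 6. The widest away from its starts were 1199 bp (71828268 to 71829466) and 1041 bp (71778038 to 71779078), both inside the gene. Past its 3′ end lay Commd8, of the COMMD family of endosomal sorting proteins, which had an interval at its start. The longest stretch without an interval, 62.5 kb (72104986 to 72167488), lay across the 3′ end of Gabrb1. Of the 65 intervals of this cluster, 28 (43.1%) were at least 500 bp wide, against 38.3% of the whole list.

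The chromosome 7 cluster holds Gabra5 and Gabrg3, both transcribed from the minus strand and 20.5 kb apart. It had 92 intervals in 974.6 kb (9.44 per 100 kb), where the chromosome had 8.76. It was the only one of the 3 clusters above its chromosome. Gabrg3, at 671 kb the longest member, had 24, 19 and 18 intervals in its 5′, middle and 3′ parts. In steps of 100 kb from its start it had 13, 8, 10, 9, 6 and 11, and 4 in the shorter last step. No step was empty, and the longest stretch without an interval was 53.8 kb (57190225 to 57244002). The widest intervals of Gabrg3 away from the start were 1208 bp (57365127 to 57366334), 1069 bp (57037448 to 57038516) and 1005 bp (57324274 to 57325278). They lay 21.5, 349 and 62.4 kb downstream of it.

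In Gabra5, by contrast, the 5′ part of the annotated gene held 2 intervals by midpoint, the middle 9 and the 3′ part 5. A further interval, over the annotated 5′ end, is centred outside the gene and is in none of these parts. The annotation reaches far upstream of the RefSeq start used here, to 57591016, and a stretch of 42.5 kb in that upstream part (57529823 to 57572296) had no interval. At its outermost end lay the widest interval in any of the windows, of 2344 bp (57590206 to 57592549), 81.3 kb from the Gabra5 start. It overlaps another protein-coding gene of the cluster that is not analysed here, so it cannot be assigned to Gabra5. In this cluster 24 of 92 intervals (26.1%) were at least 500 bp wide, against 38.3% of the whole list.

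The chromosome 11 cluster holds Gabra6 and Gabrb2, which lie 98.4 kb apart on opposite strands. It had 26 intervals in 426.2 kb (6.10 per 100 kb), where the chromosome had 11.02. The space between the genes was touched by 10 of them. Besides the interval of 374 bp inside Gabra6, its window held intervals of 303 and 213 bp centred 46.7 and 58.5 kb downstream of the start, and of 274 and 736 bp centred 39.5 and 44.8 kb upstream. From the interval inside Gabra6, 49.1 kb that take in its start (42311258 to 42360400) had none. In Gabrb2, a stretch of 75.9 kb inside the gene (42530358 to 42606211) had none, and 3, 3 and 5 intervals lay in its 5′, middle and 3′ parts. Its widest away from the starts were 828 bp upstream (42390695 to 42391522) and 723 bp in the gene (42609075 to 42609797). Of the 26 intervals, 8 (30.8%) were at least 500 bp wide, also below the 38.3% of the whole list.

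**Figure D4:**
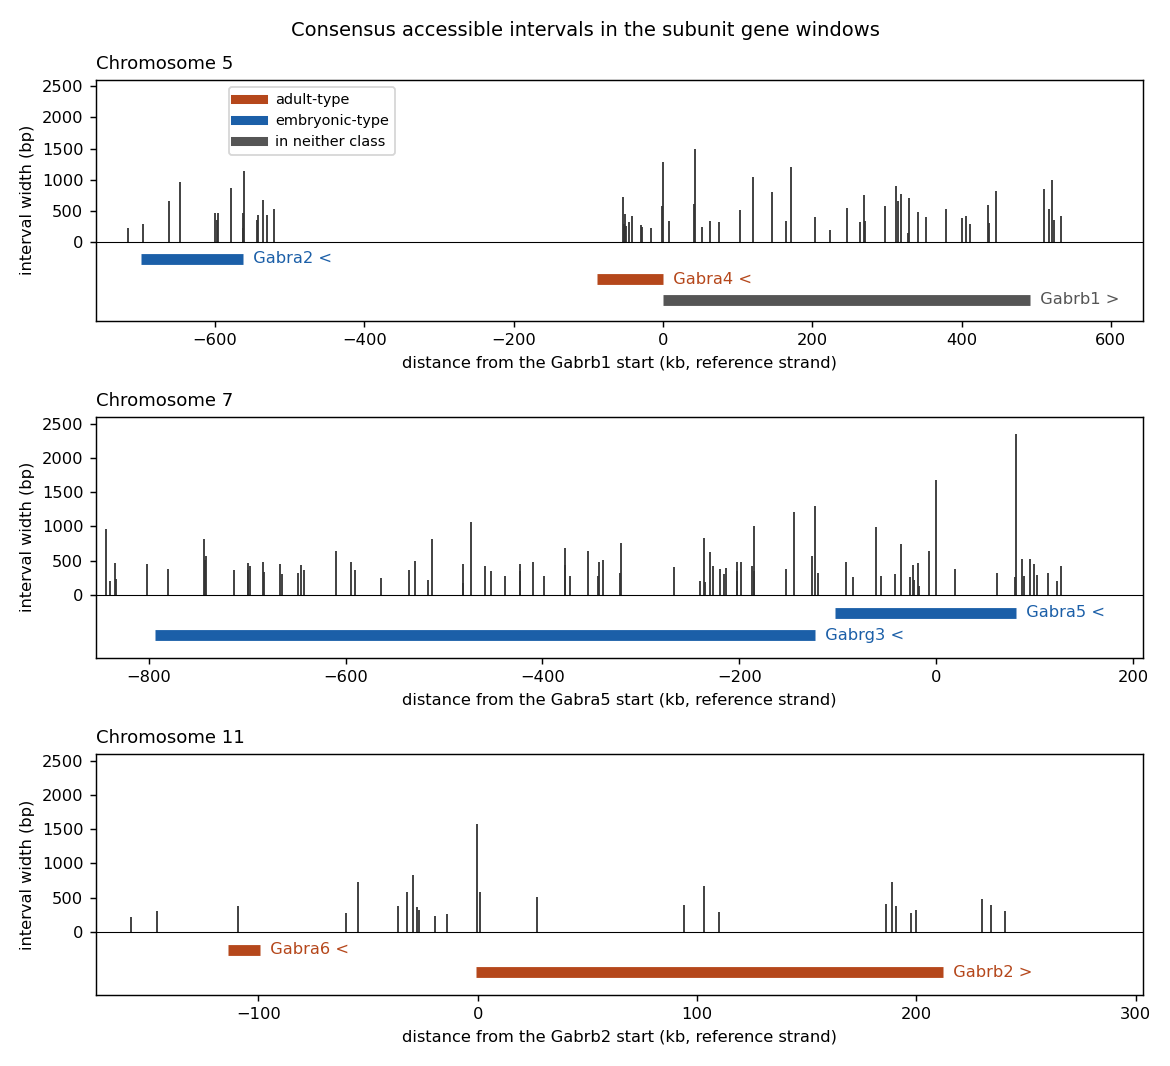
The 183 intervals of the 7 windows on chromosomes 5, 7 and 11, drawn as vertical lines at their midpoints, with distance in kb from the named start on the horizontal axis and interval width in bp on the vertical axis; coloured bars under the axis are the genes, with > for the plus and < for the minus strand. Tall lines stand at the starts of 6 genes, the tallest (2344 bp) stands at the far end of Gabra5, and none stands at the Gabra6 start.

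The adult-type and embryonic-type genes were set side by side. Adult-type Gabra6, Gabrb2 and Gabra4 had 4.36, 6.71 and 7.95 intervals per 100 kb (median 6.71), and embryonic-type Gabra2, Gabrg3 and Gabra5 had 6.74, 8.95 and 10.23 (median 8.95). The ranges overlapped, since Gabra4 lay above Gabra2. In the genes alone the medians were 6.83 and 9.09, and adult-type Gabra4 had the highest value of all. An interval lay at a start in 2 of the 3 adult-type and in all 3 embryonic-type genes, where 68.0% of all genes had one, and with 3 genes a class nothing is read from this. The windows of the adult-type genes held 41 intervals with a median width of 374 bp, of which 31.7% were at least 500 bp wide. Those of the embryonic-type genes held 108 with a median of 428.5 bp and 27.8%. Both shares were below the 38.3% of the whole list. Both chromosome 7 members are embryonic-type and both chromosome 11 members adult-type, so class and cluster cannot be told apart. Chromosome 5 holds a gene of each class, Gabra2 at 6.74 and Gabra4 at 7.95, and there the order of the medians was not seen. The adult-type genes ranged from 14.6 to 213 kb in length and the embryonic-type genes from 137 to 671 kb.

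Ionotropic glutamate receptor genes, the excitatory counterpart, were counted in the same way. The 7 NMDA receptor genes had a median of 20.31 intervals per 100 kb (5.27 to 25.12) and the 9 AMPA and kainate receptor genes 12.12 (3.64 to 26.24), where the 7 GABA-A genes had 7.61 (4.36 to 10.23). All 4 NMDA and all 6 AMPA and kainate genes with a start in the table had an interval at it, where 68.0% of all protein-coding genes did. With so few genes nothing is read from these counts. The ranges of the 3 families overlapped, and the differences were not tested. The families were not matched in gene length. The highest NMDA values, 20.31 to 25.12, were at the short genes Grin1, Grin2c, Grin2d and Grin3b (6.79 to 39.3 kb). Their windows are mostly flank. The longer Grin2a, Grin2b and Grin3a (184 to 460 kb) had 12.87, 15.17 and 5.27. Inside the genes alone, the 4 short genes had 27.98 to 44.16 per 100 kb and the longer ones 14.01, 16.29 and 4.34. The GABA-A genes had 5.16 to 13.55 there, and the 6 AMPA and kainate genes with a start 4.16 to 27.69.

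A list of 26 genes covered receptor anchoring and trafficking, GABA synthesis and uptake, chloride transport and GABA-B receptors. Of these, 22 have a start in the table, and all 22 had an interval at it, against the background of 68.0%. Their density had a median of 15.17 per 100 kb. It was highest at Slc32a1, the vesicular GABA transporter (31.34), Iqsec3, a protein of inhibitory synapses (25.40), and Gabbr2, a subunit of the G protein-coupled GABA-B receptor (24.45). It was lowest at Gphn, which encodes gephyrin, the scaffold that anchors the receptors (2.47). Next lowest were Trak2, a transport adaptor (5.75), and Zdhhc3, a palmitoyltransferase of the Golgi (6.80). Gad1 and Gad2, the enzymes that make GABA, had 24.16 and 10.41. All 7 subunit genes lay under the median of this list. The listed genes ran from 3.58 to 467 kb and were not matched to the subunit genes in length.

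Of the GABA-A subunit genes outside the 3 clusters, 7 have a start in the table and 3 had an interval at it (42.9%, against 68.0% of all genes). These were the X-linked Gabra3, Gabre and Gabrq, with widest start intervals of 505, 370 and 836 bp. In the 6 clustered genes with one, the widest start interval was between 1144 and 1676 bp. The 4 without were Gabrr1, Gabrr2 and Gabrr3, whose rho subunits are known from the retina, and Gabrp, whose pi subunit is known from tissues outside the brain.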

How the data were processed

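Per the labels, 18 ATAC-seq libraries in 4 groups were sequenced with paired reads of 50 bp. The authors deposited 1 consensus list, whose interval names carry MSPC, a program that combines replicate peak calls, and whose score is the deposited score column. Tools listed in the submitters' processing notes are deepTools, MACS2 and MultiQC, with the build mm10. Not given in the sources used here are the aligner, Tn5 shift, duplicate handling, thresholds and the samples that entered. An interval present in few samples may thus be missing, and depth is unknown. The planned group comparisons need values per sample and were not run.

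Interval and gene ends were compared on mm10 (GRCm38), with RefSeq genes of GRCm38.p6 and without 348 scaffold genes. Starts came from a RefSeq promoter table, which covers 80.3% of 21774 protein-coding genes, and genes without one were left out of start counts. An interval counted by any overlap, except in the 3 parts and the 100 kb steps of a gene, where its midpoint was used. Members and lists were chosen with earlier results of these data known. Named were all members, their start and widest intervals and longest empty stretches, neighbours, the 3 highest and 3 lowest of the pathway genes with a start, and the 3 genes nearest in density within 10% of the length of the extreme members. The rule takes 1 neighbour that is not reported here. Gad1, Gad2, the NMDA receptor genes, the non-coding neighbours and the subunit genes outside the clusters were named after their values were seen. Counting was tested on simulated data. Software was matplotlib 3.10.9, scipy 1.17.1, pandas 2.3.3, numpy 2.4.6 and Python 3.11.15. No test was run.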

Additional observations from a re-analysis of the deposited data

How the results depend on the processing

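No paired analysis was possible because the list holds no values per sample, and for the same reason no replicate could be left out. With intervals of at least 500 bp, the windows held 60 of the 183 intervals, the median density of the 7 genes fell from 7.61 to 2.53 per 100 kb, and the clusters on chromosomes 5, 7 and 11 held 28, 24 and 8 in place of 65, 92 and 26. Without flanks, the chromosome 11 cluster held 12. The other 24 alternative values of these summed results and medians stayed within 1.5 times. Of 84 alternative values for single genes, 30 moved further. Density moved for Gabra6 (2.89, 6.83 and 6.99 with flanks of 10, 0 and 100 kb, from 4.36) and for Gabra4 (11.97 with 10 kb and 13.55 with none, from 7.95), and for other genes only when narrow intervals were left out. The embryonic-type median was above the adult-type median in each of 4 alternatives (9.12 against 4.72 with flanks of 10 kb). Joining intervals under 500 bp apart, chosen after seeing the data, left 161 intervals and a median of 6.39, where the median of all genes was 8.60. Gabra5 then stood at the 53.9 percentile, above that median.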

Other observations

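The windows also hold non-coding genes. Gm39017, inside Gabrg3, overlapped 5 intervals, and Gm38562, inside Gabrb1, overlapped 2, the intervals at the downstream Gabrb1 start. The microRNA gene Mir6389, in the upstream part of Gabra5, overlapped none, nor did any of the 4 pseudogenes in Gabrg3 (Gm17984, Gm17987, Gm18642 and Gm18308) and the 2 in Gabrb1 (Gm15617 and Gm15616).

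The genes nearest to Gabra6 in density among 944 within 10% of its length were Gm3417, Klk14 and Zfp748, at 4.36, 4.36 and 4.37 per 100 kb, where the median of the 944 was 11.21. Those nearest to Gabra5 among 209 were Syndig1, Cdk5rap2 and Osbpl6, at 10.23, 10.22 and 10.20, where the median was 10.50. Other subunit genes were left out of both comparisons.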
